A study of Bos taurus with 8 samples.

Results

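The histone genes of bovine blastocysts were examined through 21 array probes for 16 genes, out of 43794 gene probes on the array. They were every probe whose gene symbol in the platform annotation began with HIST and a digit, or with H1F, H2AF or H3F, with the 4 probes of the oocyte linker histone H1FOO left out. By symbol, 12 probes for 9 genes belonged to replication-dependent histones and 9 probes for 7 genes to histone variants. The rule matched no H3 or H4 gene among the replication-dependent genes and no linker histone among the variants, so those classes were not analysed here.

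Bovine embryos were produced in vitro from slaughterhouse ovaries and cultured with or without buthionine sulfoximine (BSO), which inhibits glutamate-cysteine ligase and so the making of glutathione, the main thiol antioxidant of cells. BSO embryos were kept in synthetic oviductal fluid with 0.4 mM BSO from day 3 to day 5 and with 0.01 mM BSO from day 5 to day 7. Control embryos were kept in that medium without BSO. Blastocysts of both groups were taken at 196 h post-fertilization. Each treatment gave 4 pools of 10 blastocysts, and every array set a BSO pool against a control pool in the opposite dye. The labels do not say whether pools came from separate cultures or parents, so the p-values rest on variation among these pools, and that variation may be technical.

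Nucleosomes wrap DNA around a core of H2A, H2B, H3 and H4, and the linker histone H1 binds where the DNA enters and leaves. Replication-dependent histone genes lie in multicopy clusters and are transcribed mainly in S phase, and most of their mRNAs end in a conserved stem-loop, bound by SLBP, in place of a poly(A) tail. Variant histones mostly come from dispersed genes whose polyadenylated mRNAs are made through the cell cycle, though not every variant gene keeps to this. They replace the replication-dependent types at chosen sites. In the early embryo, chromatin has to be supplied for a series of cell divisions.

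Unless a level is named, a value is the log2 ratio of BSO over control, and 1 log2 unit is a 2-fold difference. The 8 arrays, 4 of each dye orientation, were averaged in matched pairs of opposite orientation to 4 replicates of 2 arrays, each replicate holding 1 BSO and 1 control pool. The arrays of replicates 1 and 2 shared one set of slides, and those of replicates 3 and 4 were on slide 25. With limma, 0 of 36995 kept probes passed an adjusted p of 0.05, the nearest being at 0.0514. Before adjustment, 3206 probes were higher and 5091 were lower at a p under 0.05. The median over all kept probes was 0.0079. A kept probe was brighter than the 95th percentile of 153 negative control spots on at least 4 of 8 arrays in the BSO or the control channel. Replication-dependent histone genes have near-identical copies, so a probe may read several paralogs. In pools of whole blastocysts, fewer cells of a type and less RNA per cell cannot be told apart.

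Replication-dependent histone probes were mostly higher in BSO blastocysts, and variant probes were divided. Of the 12 replication-dependent probes, 11 had a mean ratio above 0 and 1 below, and of the 11 kept ones 10 were above 0, against a background of 52.8% of kept probes. Of the 9 variant probes, 4 were above 0 and 5 below. The median was 0.20 over the replication-dependent probes and -0.039 over the variants. Over the 11 kept replication-dependent probes alone it was 0.29. No histone probe passed the adjusted threshold. At an unadjusted p under 0.05, 5 of the 20 kept histone probes were higher, against a background of 8.67%, and 0 were lower, against a background of 13.8%. The 5 were those of HIST1H2BN, HIST3H2A and H2AFZ, and 1 of the 2 probes each of HIST2H2BE and H2AFY. All 4 replicates were above 0 for 7 probes, 5 of them replication-dependent, against a background of 17.4%. All 4 were below 0 for the variant probes of H2AFJ and H2AFY2, against a background of 17.1%. In the authors' deposited log2 ratios, H2AFJ was at 0.0040 and 0.030 in replicates 1 and 2, so its shared sign was not present there.

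**Figure D1:**
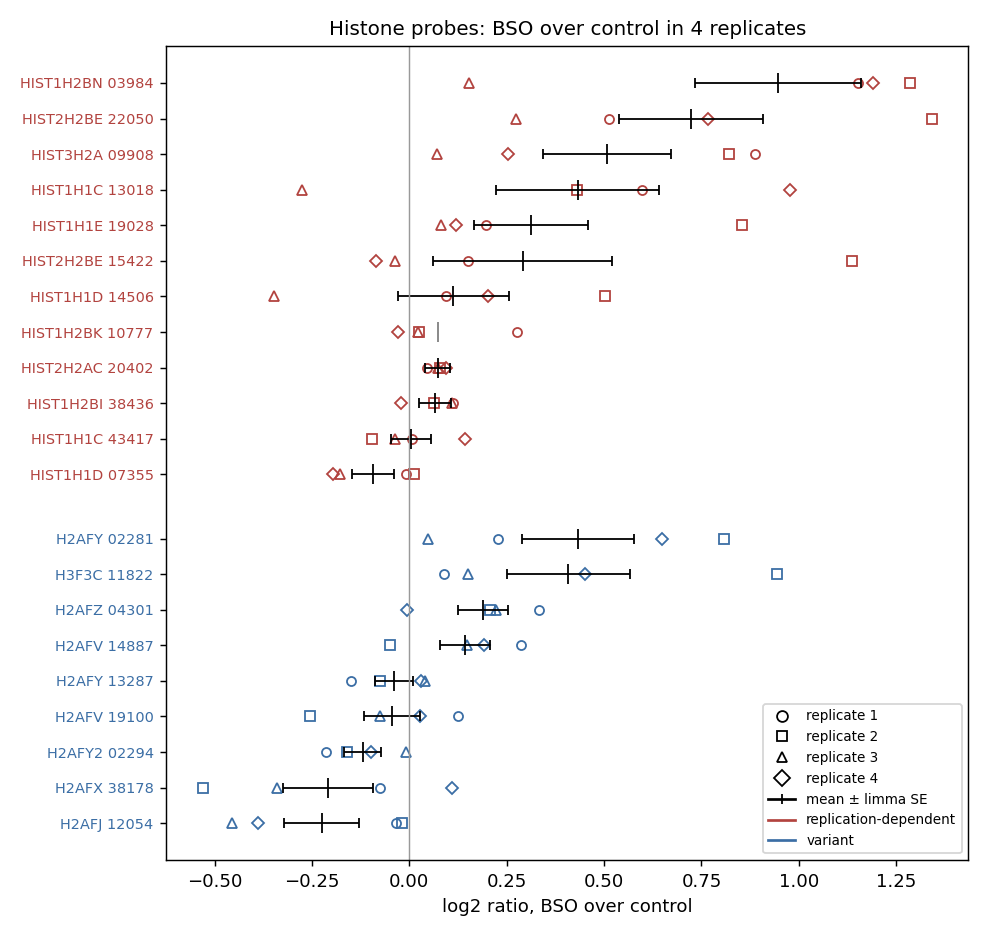
Log2 ratio of BSO over control for each of the 21 histone probes, in 4 replicates (open symbols), with the mean and limma standard error (black bars; the grey tick marks the probe that was not kept). Replication-dependent probes (red) run up to 0.95 for HIST1H2BN, and variant probes (blue) lie between -0.22 and 0.43.

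The difference between the medians of the classes, replication-dependent minus variant, was 0.24. It was 0.084 in replicate 1, 0.52 in replicate 2, 0.0074 in replicate 3 and 0.10 in replicate 4. It was thus above 0 in 4 of 4 replicates, with most of its size in replicate 2. Over kept probes alone the difference was 0.33, and 0.061, 0.55, 0.032 and 0.11 in replicates 1 to 4. Without replicate 2, the difference was 0.055, the replication-dependent median 0.080 and the variant median 0.026. By slide set, replicates 1 and 2 gave a difference of 0.43, and replicates 3 and 4 one of 0.033. The authors' deposited log2 ratios gave medians of 0.22 and -0.033 for the replication-dependent and variant probes, and a difference of 0.26. In those deposited ratios the difference was 0.16, 0.51, 0.063 and 0.11 in replicates 1 to 4. In a limma fit of the deposited ratios of all 43794 probes, 7 histone probes were higher at an unadjusted p under 0.05, against a background of 11.6%, and 1, H2AFY2, was lower, against a background of 12.9%. No histone probe passed the adjusted threshold there, and 0.582% of all probes did. No test was made of the difference between the classes, since the members were chosen with results known.

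H2B is one of the 4 core histones, and HIST1H2BN, an H2B gene, had the highest ratio of all histone probes. Its levels in BSO pools were 12.32, 14.80, 11.20 and 12.61 in normalized log2 intensity, against 11.16, 13.51, 11.04 and 11.42 in control pools. Every BSO pool was above the control pool of its own replicate, though the groups overlapped. Both pools of replicate 2 were high. In replicate 3 the BSO pool, at 11.20, was low, below the control pool of replicate 4 at 11.42, while its control pool, at 11.04, was near that of replicate 1 at 11.16. The ratios were 1.15, 1.29, 0.15 and 1.19, with a mean of 0.95 ± 0.21 (limma SE, n = 4), 1.93-fold in linear terms, and a limma adjusted p of 0.107. Of the 36995 kept probes, 13 had a higher mean ratio. The dye made little difference, with means of 0.96 on arrays with BSO in Cy5 and 0.93 with BSO in Cy3. In the RefSeq gene table the symbol matched both H2BC12 and H2BC15, so the copy is not settled. The array's HIST1H2BK probe, whose symbol also matched H2BC12, was not above the negative controls on any array.

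HIST2H2BE, an H2B gene of another cluster and H2BC21 in current naming, was read by probes that differed in size of response. Probe EMBV3_22050 had levels of 8.92, 11.12, 9.02 and 9.82 in BSO pools, against 8.41, 9.78, 8.75 and 9.05 in control pools. Its ratios were 0.51, 1.34, 0.27 and 0.77, above 0 in all 4 replicates, and the mean was 0.72 ± 0.18 (limma SE, n = 4), a 1.65-fold difference at a limma adjusted p of 0.126. Probe EMBV3_15422 stood at 0.15, 1.14, -0.037 and -0.087, a mean of 0.29 ± 0.23 that rests on replicate 2. The first probe was above the second in all 4 replicates, by 0.21 to 0.85. In a fit of all 8 arrays with pairs as a replicate block, HIST1H2BN and EMBV3_22050 passed, at limma adjusted p of 0.010 and 0.015, among the 3.81% of kept probes that were called higher there. Of the other H2B probes, HIST1H2BI was at 0.066 ± 0.041. HIST1H2BK, at 0.074 over 4 replicates, was above the negative controls on 0 arrays in either channel and was not kept.

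Both replication-dependent H2A genes were above 0 in all 4 replicates, at very different sizes. HIST3H2A had levels of 8.48, 8.62, 7.79 and 7.73 in BSO pools, against 7.59, 7.80, 7.72 and 7.48 in control pools. BSO pools of replicates 1 and 2 were higher than every control pool, and those of replicates 3 and 4 lay among the control levels. The mean ratio was 0.51 ± 0.16 (limma SE, n = 4), a 1.42-fold difference at a limma adjusted p of 0.175. It was 0.85 over replicates 1 and 2 and 0.16 over replicates 3 and 4, and the limma adjusted p of that slide difference was 0.714. The unadjusted p of the slide difference was under 0.05 for 2 histone probes, HIST3H2A and H2AFJ, against a background of 6.87%. HIST2H2AC was at 0.072 ± 0.033, with replicates between 0.044 and 0.093. Its level was 7.44 to 7.49 in BSO pools and 7.37 to 7.41 in control pools, so the groups did not overlap, as in 2.41% of kept probes. The spot was dim, with a mean log2 intensity of 7.43, below the median of 7.53 over kept probes.

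H1 linker histones compact the chromatin fibre, and the 3 replication-dependent H1 genes were each read with a wide spread. HIST1H1C probe EMBV3_13018 had levels of 8.08, 10.04, 7.52 and 8.46 in BSO pools, against 7.48, 9.61, 7.80 and 7.49 in control pools. Its ratio was 0.43 ± 0.21, below 0 in replicate 3 at -0.28 and highest in replicate 4 at 0.98. The other HIST1H1C probe was at 0.0037 ± 0.051, on a dimmer spot. HIST1H1D was at 0.11 ± 0.14 on probe EMBV3_14506 and at -0.093 ± 0.054 on probe EMBV3_07355, which held the only mean below 0 among the replication-dependent probes. The spot of EMBV3_07355 was dim, at a mean log2 intensity of 7.34. It was above the negative controls on 5 of 8 arrays in the BSO channel. HIST1H1E stood at 0.20, 0.85, 0.080 and 0.12 in the 4 replicates, with a mean of 0.31 ± 0.15 (limma SE, n = 4) and a limma adjusted p of 0.292. Its level in the BSO pool of replicate 2 was 8.29, while the other BSO pools lay between 7.43 and 7.73 and the control pools between 7.31 and 7.53. Over the 5 H1 probes the median was 0.11, against 0.29 over the 2 H2A and 0.29 over the 5 H2B probes.

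**Figure D2:**
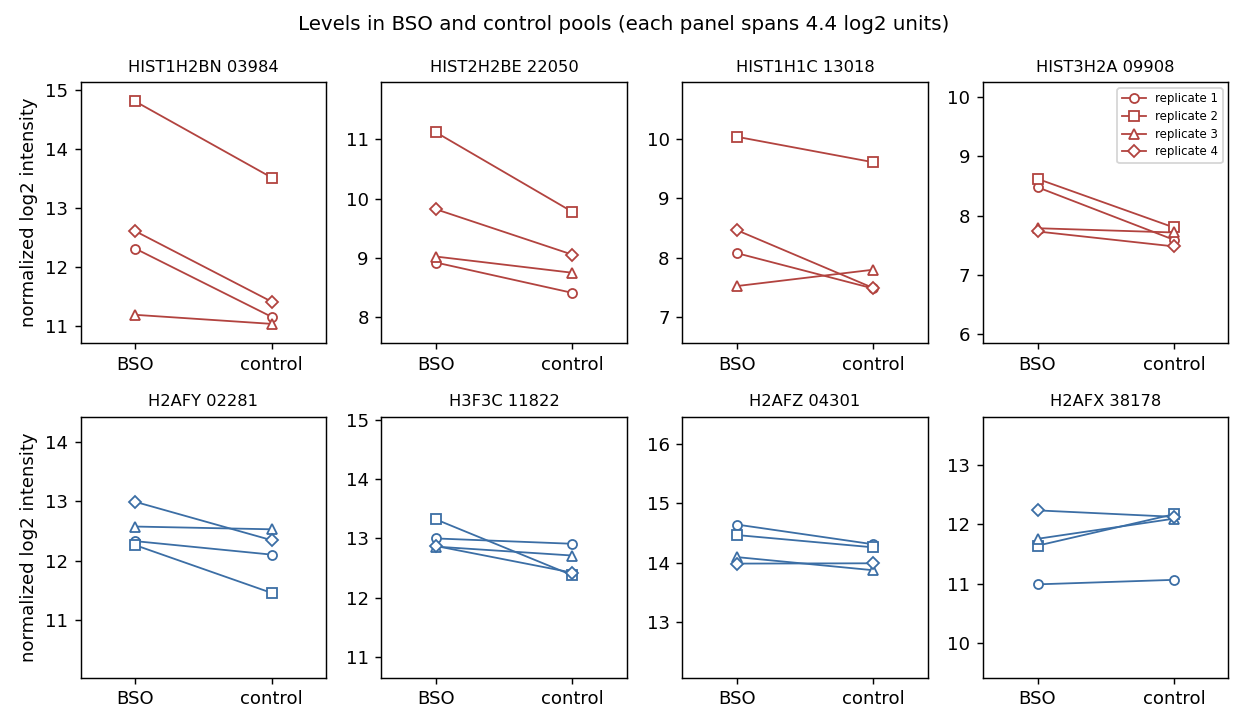
Normalized log2 intensity in the BSO pool (left) and the control pool (right) of each replicate, for 4 replication-dependent genes (red, top) and 4 variant genes (blue, bottom), each at its probe with the highest ratio. Lines join the pools of a replicate, and every panel spans the same number of log2 units. For HIST1H2BN and HIST1H1C, both pools of replicate 2 lie above all other pools.

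Among the variants, H2AFZ and H2AFV encode the H2A.Z proteins, which are placed at promoters. H2AFZ had levels of 14.64, 14.46, 14.09 and 13.98 in BSO pools, against 14.31, 14.26, 13.87 and 13.99 in control pools. Its ratio was above 0 in 3 of 4 replicates and was -0.0050 in replicate 4, with a mean of 0.19 ± 0.06 (limma SE, n = 4) and a limma adjusted p of 0.188. H2AFV was at 0.14 ± 0.06 on probe EMBV3_14887 and at -0.045 ± 0.072 on probe EMBV3_19100. The first exceeded the second by 0.16 to 0.22 in every replicate, as means over both dyes, and the SE of the second spanned 0. By dye, the first probe was at 0.17 with BSO in Cy5 and 0.11 with BSO in Cy3. The second was at -0.25 and 0.16, so it was below 0 with BSO in Cy5 only.

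MacroH2A, an H2A with a large extra domain that is enriched on the inactive X chromosome, is encoded by H2AFY and H2AFY2. H2AFY probe EMBV3_02281 had levels of 12.33, 12.26, 12.57 and 12.99 in BSO pools, against 12.10, 11.45, 12.53 and 12.34 in control pools. Its mean ratio was 0.43 ± 0.14 (limma SE, n = 4), a 1.35-fold difference, and every replicate was above 0, at a limma adjusted p of 0.182. Much of the size came from replicate 2, at 0.81, and replicate 4, at 0.65. The second H2AFY probe, on a dim spot, was at -0.039 ± 0.048. H2AFY2 was at -0.12 ± 0.05 (limma SE, n = 4), with a limma adjusted p of 0.232. Its levels were 7.16 to 7.32 in BSO pools and 7.33 to 7.43 in control pools, so every BSO pool was below every control pool, as in 4.34% of kept probes.

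H3F3C belongs to the H3.3 type, the replacement form of H3. It was at 0.090, 0.94, 0.15 and 0.45 in the 4 replicates, with a mean of 0.41 ± 0.16 (limma SE, n = 4) and a limma adjusted p of 0.225. Levels were 12.86 to 13.32 in BSO pools and 12.38 to 12.91 in control pools. The BSO pools of replicates 1 and 2 were above every control pool, and those of replicates 3 and 4 were just below the highest one. Its symbol matched both H3-3D and H3-5 in the RefSeq gene table.

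H2AFX encodes H2A.X, which is phosphorylated around DNA double-strand breaks, and H2AFJ encodes H2A.J. Both had means below 0. H2AFX was at -0.076, -0.53, -0.34 and 0.11, with a mean of -0.21 ± 0.12 (limma SE, n = 4) and a limma adjusted p of 0.352. Its levels were 10.99 to 12.24 in BSO pools and 11.06 to 12.17 in control pools, and the groups overlapped. H2AFJ was at -0.035, -0.020, -0.46 and -0.39, with a mean of -0.22 ± 0.10 (limma SE, n = 4) and a limma adjusted p of 0.258. Levels of H2AFJ were 7.53 to 8.61 in BSO pools and 7.71 to 8.63 in control pools. Its mean was -0.028 over replicates 1 and 2 and -0.42 over replicates 3 and 4.

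The sign of both genes differed with the dye. H2AFJ had a mean of -0.57 on arrays with BSO in Cy5 and 0.12 with BSO in Cy3. For H2AFX the means were -0.51 and 0.088. The dye term, which is shared by both treatments, passed the adjusted threshold with limma for 4 of 20 histone probes, against a background of 22.8%. These were H2AFJ, H2AFX, HIST1H2BI and HIST1H1C probe EMBV3_43417. By orientation, the replication-dependent median was 0.24 with BSO in Cy5 and 0.32 with BSO in Cy3. The variant median was 0.032 with BSO in Cy5 and 0.11 with BSO in Cy3, both above the variant median of -0.039 over all arrays.

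**Figure D3:**
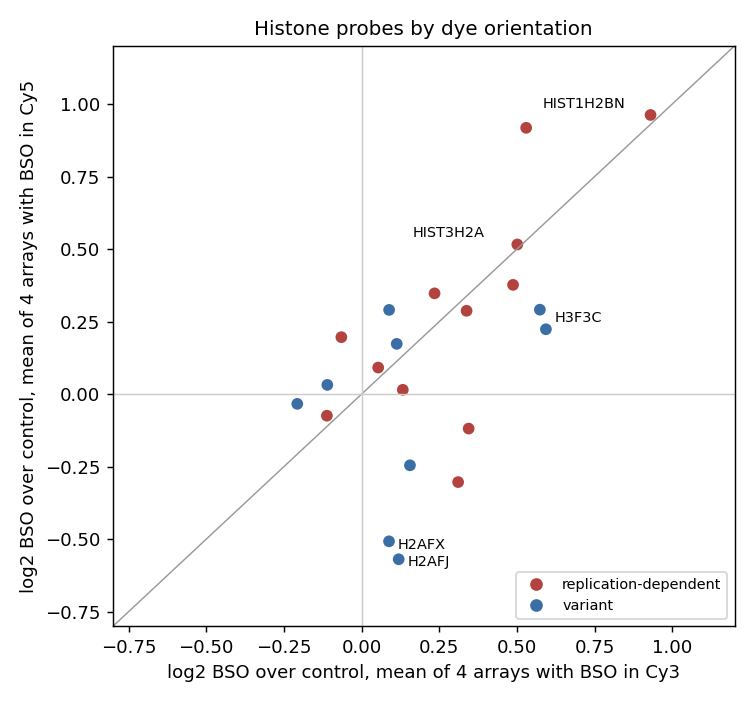
Mean log2 ratio of BSO over control on the 4 arrays with BSO in Cy3 (horizontal) and on the 4 arrays with BSO in Cy5 (vertical) for each histone probe. HIST1H2BN and HIST3H2A lie close to the line of equal values, whereas H2AFX and H2AFJ are below 0 in Cy5 only.

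Spot brightness moved with the size of the ratios. On this array the standard deviation of ratios was 0.27 over kept probes above the median brightness and 0.090 over those below it, at a mean log2 intensity of 7.53. The 7 replication-dependent probes above it were all above 0, between 0.11 and 0.95, with a median of 0.43. The 7 variant probes above it lay between -0.22 and 0.43, with a median of 0.14 and 4 above 0. On the dimmer side, the 5 replication-dependent probes lay between -0.093 and 0.074. The 2 dimmer variant probes were both below 0, at -0.039 and -0.12.

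Each kept probe was also set against the 5th to 95th percentile of kept probes of like brightness, in 20 groups, a comparison chosen after the values were seen. Above that range were 5 of the 11 kept replication-dependent probes and 0 of the 9 variant probes, against a background of 5.03%. The 5 were HIST1H2BN, HIST3H2A, HIST1H1E, HIST2H2BE EMBV3_22050 and HIST1H1C EMBV3_13018. None of the 20 was below the range, against a background of 5.03%. With each replicate left out in turn, the counts above were 4 or 5 for the replication-dependent probes and 0 to 2 for the variants. HIST1H2BN, at 0.95, compared with a 95th percentile of 0.48 for its brightness, and HIST3H2A, at 0.51, with one of 0.28.

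Levels of several replication-dependent histone transcripts also differed between replicates, in BSO and control pools alike, and replicate 2 stood apart. This comparison too was chosen after the values were seen. In HIST1H2BN, replicate 2 exceeded the mean of the other 3 replicates by 2.76 in its BSO pool and by 2.31 in its control pool. HIST1H1C probe EMBV3_13018 exceeded it by 2.02 in both pools. HIST2H2BE probe EMBV3_22050 did so by 1.86 and 1.04 in the BSO and control pools, and HIST1H1D probe EMBV3_14506 by 1.58 and 1.06. Both pools of replicate 2 were thus more than 1 log2 unit above the others for 4 of 11 kept replication-dependent probes and 0 of 9 variant probes, against a background of 0.165%, or 61 probes. That background covers all kept probes, dim ones included, and was not matched for brightness. The 4 probes had mean log2 intensities of 7.92 to 12.27, above the kept median of 7.53. In the control pool alone, 99.99% of kept probes had a smaller excess than HIST1H2BN.

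For replicates 1, 3 and 4, set in the same way against the other 3, the count was 0 among the 20 histone probes, against backgrounds of 0.0838%, 0.257% and 0.0405%. The excess of replicate 2 was present on both of its arrays, at 2.58 and 2.49 for HIST1H2BN, and at 2.09 and 1.96 for HIST1H1C probe EMBV3_13018. The second HIST2H2BE probe showed 2.04 in the BSO pool and 0.91 in the control pool. Among the variants, H2AFJ had the largest excess in both pools, at 1.01 and 0.73 in the BSO and control pools. H2AFY probe EMBV3_02281 was lower in replicate 2, by -0.37 in the BSO pool and -0.87 in the control pool. These 2 arrays were on separate slides with the dyes exchanged, so the excess was not limited to 1 array, 1 dye or 1 pool. What else the pools of replicate 2 share was not tested.

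**Figure D4:**
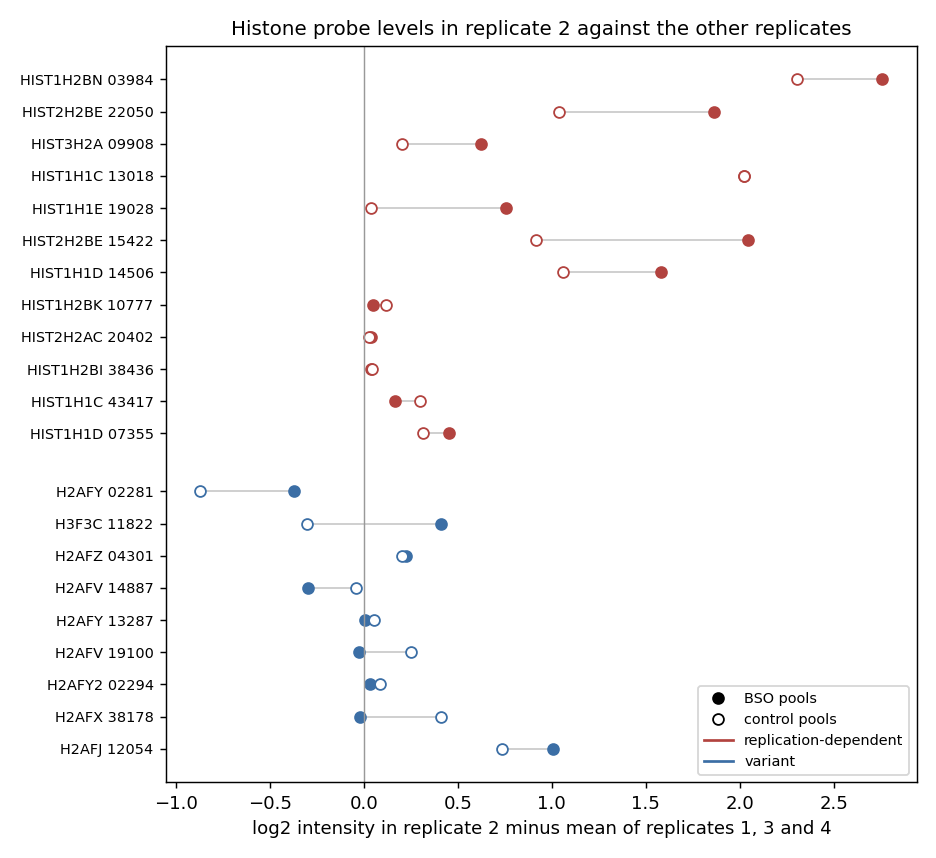
Normalized log2 intensity in replicate 2 minus the mean of replicates 1, 3 and 4 for each histone probe, in BSO pools (filled) and control pools (open). Replication-dependent probes (red) reach 2.76 in the BSO pool and 2.31 in the control pool, both for HIST1H2BN, and no variant probe (blue) exceeds 1 in both pools.

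Genes that make, process, degrade and place histones were read from 4 lists, each gene at its brightest kept probe. Over all 13678 genes so taken, 10.4% were higher and 14.8% lower at an unadjusted p under 0.05, and the median was 0.0044. None passed the adjusted threshold with limma. Of 24 measured genes of histone transcription and pre-mRNA 3′ processing, 3 were higher and 5 lower, with a median of -0.044 and replicate medians of -0.066, -0.060, -0.066 and 0.023. SLBP, which binds the histone stem-loop, was at 0.17 ± 0.09, and NPAT, the coactivator of histone loci, at -0.094 ± 0.069, with neither at an unadjusted p under 0.05. SNRPE, an Sm protein of the spliceosome and of the U7 particle, had the highest ratio of the list, at 0.54 ± 0.05 (limma SE, n = 4), with a limma adjusted p of 0.057. NFYA and NFYB, subunits of the CCAAT-binding factor, stood at -0.48 ± 0.18 and 0.32 ± 0.06, in opposite directions. SNRPB, another Sm protein, was at -0.46 ± 0.11, and LSM10, which is particular to the U7 particle, at -0.20 ± 0.05. CSTF2, a cleavage factor, was at -0.26 ± 0.08, and the S-phase regulator E2F3 at -0.21 ± 0.06. LSM10 and E2F3 were at -0.39 and -0.41 on arrays with BSO in Cy5, but at -0.012 and -0.0024 with BSO in Cy3. CSTF2 was at -0.34 and -0.18 in those orientations.

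Of 10 measured genes of histone mRNA decay, 1 was higher and 3 were lower, with a median of 0.099. The median within a replicate was -0.061, 0.19, -0.058 and -0.094, below 0 in all but replicate 2. The helicase UPF1 was at 0.25 ± 0.07, and the 3 lower ones were XRN1, EXOSC10 and LSM4, between -0.17 and -0.12. XRN1 was at 0.036 with BSO in Cy5 and -0.38 with BSO in Cy3, while EXOSC10 and LSM4 were below 0 in both orientations. Of 29 measured histone chaperones and deposition factors, 7 were higher and 3 lower, with a median of 0.046 and replicate medians of 0.13, 0.079, -0.047 and 0.047. NASP, a chaperone for H3 and H4, was at 0.36 ± 0.12, CHAF1B, a subunit of the CAF-1 complex that loads histones behind the replication fork, at 0.33 ± 0.09, and HAT1, which acetylates new H4, at 0.25 ± 0.05. YEATS4, a reader subunit of the H2A.Z-loading SRCAP and TIP60 complexes, was at 0.50 ± 0.15. VPS72, the H2A.Z-binding subunit of the same complexes, was at -0.38 ± 0.08. SSRP1, a subunit of FACT, stood at -0.40 ± 0.06 (limma SE, n = 4), with a limma adjusted p of 0.072. SUPT16H, the other FACT subunit, named after its values were seen, was at 0.16 ± 0.05. DAXX, which places H3.3, was at -0.17 ± 0.04, and UBN2 of the H3.3-placing HIRA complex at 0.26 ± 0.06. CENPA, the centromeric H3, had no kept probe under its symbol and was not analysed here.

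Of 23 measured S-phase genes, 6 were higher and 1 lower, with 14 means above 0 and 9 below and a median of 0.074. By replicate that median was 0.076, 0.28, 0.026 and 0.053, with replicate 2 highest. Replicate 2 was also highest for the replication-dependent histones, the histone mRNA decay genes, and the epiblast and cumulus markers described below. It was lowest for the trophectoderm and hypoblast markers, so standing apart was not particular to S-phase genes. For the processing and chaperone lists it was neither. RRM2, a subunit of ribonucleotide reductase, was at 0.48 ± 0.11, and the cyclins CCNE2 and CCNA2 were at 0.41 ± 0.06 and 0.24 ± 0.05. POLA1, the catalytic subunit of DNA polymerase alpha, was at 0.34 ± 0.11, and FEN1, which trims Okazaki fragments, at 0.28 ± 0.10. The licensing factor CDT1 was at -0.44 ± 0.09 over all arrays, with -0.999 on arrays with BSO in Cy5 and 0.13 with BSO in Cy3. All 6 MCM helicase genes, a group picked after the values were seen, had means below 0, between -0.30 and -0.084, with 0 at an unadjusted p under 0.05. Over all kept probes, 52.8% had a mean above 0. None of the MCM genes had 1 sign in all 4 replicates. In replicate 1, MCM3, MCM4, MCM5, MCM6 and MCM7 were above 0, between 0.010 and 0.64. The part of S-phase transcripts in the histone ratios was not tested.

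Markers of blastocyst cell types were read in the same way, and none passed the adjusted threshold with limma. All 10 trophectoderm markers were above the negative controls in both channels of every array, and at an unadjusted p under 0.05, 0 were higher and 5 lower, with a median of -0.46. The trophectoderm regulators CDX2, GATA3, GATA2 and TFAP2C, named after their values were seen, were not among the 5, at 0.0074, -0.046, -0.096 and 0.10. The summed intensity of all 10 trophectoderm markers ranged from 69679 to 113033 in BSO pools and from 100100 to 139558 in control pools. Of 5 measured hypoblast markers, 0 were higher and 3 lower, with a median of -0.42 and summed intensities of 12831 to 23747 in BSO pools and 19230 to 27264 in control pools. Of 6 epiblast markers, 2 were higher and 1 lower, with a median of 0.094 and summed intensities of 10238 to 13139 in BSO pools and 8896 to 11512 in control pools. By replicate the trophectoderm median was -0.10, -0.60, -0.15 and -0.39, with replicate 2 lowest. The hypoblast median was -0.052, -0.42, -0.21 and -0.34, also lowest in replicate 2. The epiblast median was 0.15, 0.38, -0.095 and 0.16, highest in replicate 2. Of 7 measured markers of cumulus and granulosa cells, 3 were above the negative controls in both channels of every array, with 0 higher and 1 lower. The part of these cell types in the histone ratios was not tested.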

How the data were processed

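The deposited scanner output of each array held raw intensity values at 532 nm (Cy3) and 635 nm (Cy5), with no correction applied per the file headers. A deposited table held log2 ratios by the authors. The submitters' processing notes name limma with no version, and the normalization behind these ratios is not stated there. By comparison with scanner values they were BSO over control on all 8 arrays, correlating at 0.889 to 0.989, with array medians of 0.0011 to 0.013. Per the labels, RNA was amplified in T7 polymerase rounds before dye labelling, and how the first strand was primed is not stated, which bears on mRNAs without a poly(A) tail.

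Intensities were corrected and normalized here (limma 3.58.1, jsonlite 2.0.0, R 4.3.3) by normexp with an offset of 50 and loess, with control spots at weight 0. Levels were intensities scaled between arrays. The 4 replicates were means of arrays of opposite dye at the same order within slides. That pairing was inferred, and deviations of matched arrays correlated at 0.657 to 0.843, against at most -0.049 for unmatched arrays. Deviations from a shared mean tend to oppose each other by construction, so the negative sign for unmatched arrays is no evidence for the pairing. The replicate mean was tested against 0 by lmFit and eBayes. P-values were adjusted by Benjamini-Hochberg over 36995 kept probes, and the procedure was tested on simulated data. Arrays give no read depth, and their number limits the precision.

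Histone probes, gene lists and alternatives were chosen with earlier results of these data known. Probes described in full were those at an unadjusted p under 0.05 with 1 sign in all 4 replicates, the highest and lowest of each replication-dependent type, and the brightest of each variant gene. In the lists, up to 5 genes a direction at that threshold and of 1 sign, with SLBP, NPAT and CENPA, were eligible for naming. Of the 16 histone symbols, 14 matched 1 current symbol in a RefSeq gene table, used for names only. No genome build was named, so no coordinates are given.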

Additional observations from a re-analysis of the deposited data

Results flagged for a closer look

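Of 51 ratios examined for 1 replicate far from the other 3 by Dixon's criterion, 3 stood out, and chance picks about 1 in 20. HIST1H2BN had 0.15 in replicate 3, against 1.15 to 1.29 in the others. HIST1H1E had 0.85 in replicate 2, against 0.080 to 0.20. YEATS4 had 1.05 in replicate 2, against 0.29 to 0.37.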

How the results depend on the processing

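The settings were series-matrix values, no background correction, median centring, no filter and a stricter filter on dim probes, all 8 arrays with a replicate block, the slide set as a covariate, each slide set, each dye orientation, and each replicate left out. Of 291 values of 20 kept histone probes under them, 268 kept their sign and side of the threshold, 7 newly passed it and 16 changed sign, and 11 probes never changed sign. With no filter, the stricter filter, the replicate block or the slide covariate, the ratio of a probe is the same by construction. Only its p-value could change there, so those values could not change sign. The class difference was 0.033 to 0.43 over all settings, 0.15 at the brightest probe of each gene, and 0.15 without HIST1H2BN, a choice made after seeing the data.

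The count of all probes passing, 0 as reported, was 220 with the series-matrix values, 468 without background correction, 91 without the filter, 274 with the stricter filter, 3948 with the replicate block (correlation 0.543) and 7668 with BSO in Cy5 alone. The replicate block changed no call of a histone probe except HIST1H2BN and HIST2H2BE EMBV3_22050. Of calls at an unadjusted p under 0.05, 38.6% were higher with loess, 49.0% with median centring and 48.6% with the series-matrix values.

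The replication-dependent median was 0.58 with the stricter filter, 0.41 in replicates 1 and 2, 0.068 in replicates 3 and 4, 0.11 without HIST1H2BN, and 0.080 to 0.33 with a replicate left out. The stricter filter kept only 4 of 12 replication-dependent probes, leaving out HIST3H2A and HIST1H1E among others, and 7 of 9 variant probes. Medians and class differences under it thus cover fewer genes. The variant median was 0.14 with the stricter filter and at the brightest probes, 0.035 in replicates 3 and 4, 0.032 in Cy5, 0.11 in Cy3, and -0.062 to 0.026 with a replicate left out. Histone probes higher at an unadjusted p under 0.05, 5 of 20 as reported, were 8 with the replicate block, 1 in replicates 3 and 4, and 3 to 5 with a replicate left out, lowest without replicate 2. Of all 36995 kept probes, 3206 were higher as reported, 3657 with the block and 2400 in replicates 3 and 4. With a replicate left out, 2097 to 3094 were higher, also fewest without replicate 2. Histone probes lower, 0 as reported, were 1 with the series-matrix values, without background correction, without the filter, with the block and in Cy3, 2 with the slide covariate and in replicates 3 and 4, 4 in Cy5, and 0 to 1 with a replicate left out. Of all 36995 kept probes, 5091 were lower as reported, 5250 with the slide covariate, 3481 in replicates 3 and 4 and 7922 in Cy5. The other counts lower were 4941 with the series-matrix values, 5642 without background correction, 5726 with the block and 4935 in Cy3. Without the filter, 5405 of 43794 probes were lower. List genes higher, 17 as reported, were 10 with the stricter filter and in replicates 3 and 4, and 10 to 17 with a replicate left out, lowest without replicate 2. Those lower, 12 as reported, were 5 with the stricter filter, which tests fewer genes, and 4 in replicates 1 and 2.

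Sign changes were as follows. In Cy3 alone, H2AFJ was at 0.12, H2AFX at 0.088, H2AFV EMBV3_19100 at 0.16 and HIST1H2BI at -0.065. In Cy5 alone, H2AFY EMBV3_13287 was at 0.032, HIST1H1C EMBV3_43417 at -0.30 and HIST1H1D EMBV3_14506 at -0.12. In replicates 3 and 4, H2AFY EMBV3_13287 was at 0.035, HIST1H1D EMBV3_14506 at -0.072 and HIST2H2BE EMBV3_15422 at -0.062. In replicates 1 and 2, HIST1H1C EMBV3_43417 was at -0.045 and HIST1H1D EMBV3_07355 at 0.0014. With median centring, H2AFY EMBV3_13287 was at 0.0032. With a replicate left out, H2AFV EMBV3_19100 ranged from -0.10 to 0.026 and HIST1H1D EMBV3_14506 from -0.017 to 0.27, each changing sign without replicate 2, and HIST1H1C EMBV3_43417 ranged from -0.043 to 0.037, changing sign without replicate 4. The cause of these sign changes was not tested. Dim spots, with ratios compressed toward 0, limit what can be read of HIST1H2BK, HIST1H2BI, H2AFY2 and HIST2H2AC. The same holds for HIST1H1D EMBV3_07355, HIST1H1C EMBV3_43417 and H2AFY EMBV3_13287.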
